A study of Mus musculus with 24 samples.

Results

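The genes followed here are 8 regulators and markers of the mammalian cell division cycle: the A-type cyclin Ccna2, the D-type cyclins Ccnd1, Ccnd2 and Ccnd3, the kinases Cdk4 and Cdk6, the kinase inhibitor Cdkn1b and the proliferation marker Mki67. They were chosen by gene symbol, and every transcript carrying such a symbol in the deposited table was taken. Of the 8 genes, 7 had a row, with 8 transcripts among 19571 in the table, because Cdk4 was listed as a protein-coding transcript and as a retained-intron transcript. Ccnd3 was not analysed here. The study measured RNA from whole mouse dorsal root ganglia, which hold the cell bodies of sensory neurons together with their glia, after the sciatic nerve had been crushed. Per the labels, wild-type C57/BL6 mice aged 12 weeks carried no engineered allele. Camptothecin, an inhibitor of DNA topoisomerase I, was injected into the peritoneum at 2 mg/kg, 30 min after the crush, and control mice received vehicle. Ganglia were collected at 18, 24 or 36 h after injury, and every group was injured. Count columns were matched to 19 of the 24 labelled samples: 3 vehicle libraries at each time, and 3, 4 and 3 camptothecin libraries at 18, 24 and 36 h. The other 5 were not analysed here.

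In dividing cells, D-type cyclins bind Cdk4 or Cdk6 in G1, and the active kinase phosphorylates the retinoblastoma protein and so frees E2F transcription factors. Cyclin A2, made from S phase to mitosis, activates Cdk2 and Cdk1. Cdkn1b encodes p27, which binds and restrains cyclin and kinase complexes, and Mki67 encodes Ki-67, a coat of mitotic chromosomes found in cycling but not in resting cells. Sensory neurons are postmitotic, whereas satellite glia, Schwann cells, macrophages and other non-neuronal cells of a ganglion can divide after nerve injury. In bulk RNA of a ganglion, fewer cells of a type and less RNA per cell cannot be told apart.

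The libraries held 3617718 to 8317072 counts in the vehicle arm and 6637121 to 15041262 in the camptothecin arm, and at each time the deepest vehicle library had fewer counts than the shallowest one from camptothecin. For each library, a transcript's deviation from its mean log2 level over all libraries was set against its GC content. The rank correlation lay between -0.312 and 0.056 for the vehicle arm, and between -0.080 and 0.319 for the camptothecin arm. Sensory neuron markers summed to between 8582 and 12870 CPM, counts scaled to a library of fixed size, in every library, as the labelled tissue calls for. A list of myeloid precursor and neutrophil markers, with rows for 6 of its 8 genes (the highest were Ngp and S100a8, and Mpo and Prtn3 had no row), stood above 100 CPM in 4 libraries: 169 in vehicle 36 h replicate 4, 223 in camptothecin 18 h replicate 2, 187 in camptothecin 24 h replicate 1 and 140 in camptothecin 36 h replicate 1. In the other 15 libraries it lay between 8.31 and 91.0 CPM.

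Per length of transcript, Cdk4 was the most abundant member in every group. In vehicle at 18 h its protein-coding transcript stood at 26.4 ± 2.64 CPM per kb (SD, n = 3), ahead of Cdkn1b at 16.2 ± 3.76, Ccna2 at 15.5 ± 3.64 and Ccnd1 at 14.9 ± 2.77, which did not differ beyond their spread. Ccnd2 followed at 9.84 ± 2.91, Mki67 at 2.23 ± 0.87 and Cdk6 at 0.90 ± 0.17. In camptothecin at 36 h the order was Cdk4 at 31.2 ± 2.06 CPM per kb (SD, n = 3), Ccnd1 at 25.5 ± 9.83, Cdkn1b at 14.8 ± 0.82, Ccna2 at 9.12 ± 0.93, Ccnd2 at 7.54 ± 1.67, Mki67 at 3.91 ± 1.02 and Cdk6 at 1.40 ± 0.20, with the spreads of Cdk4 and Ccnd1 and those of Ccna2 and Ccnd2 overlapping. The retained-intron transcript of Cdk4 held only 0 to 40 counts in a library.

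**Figure D1:**
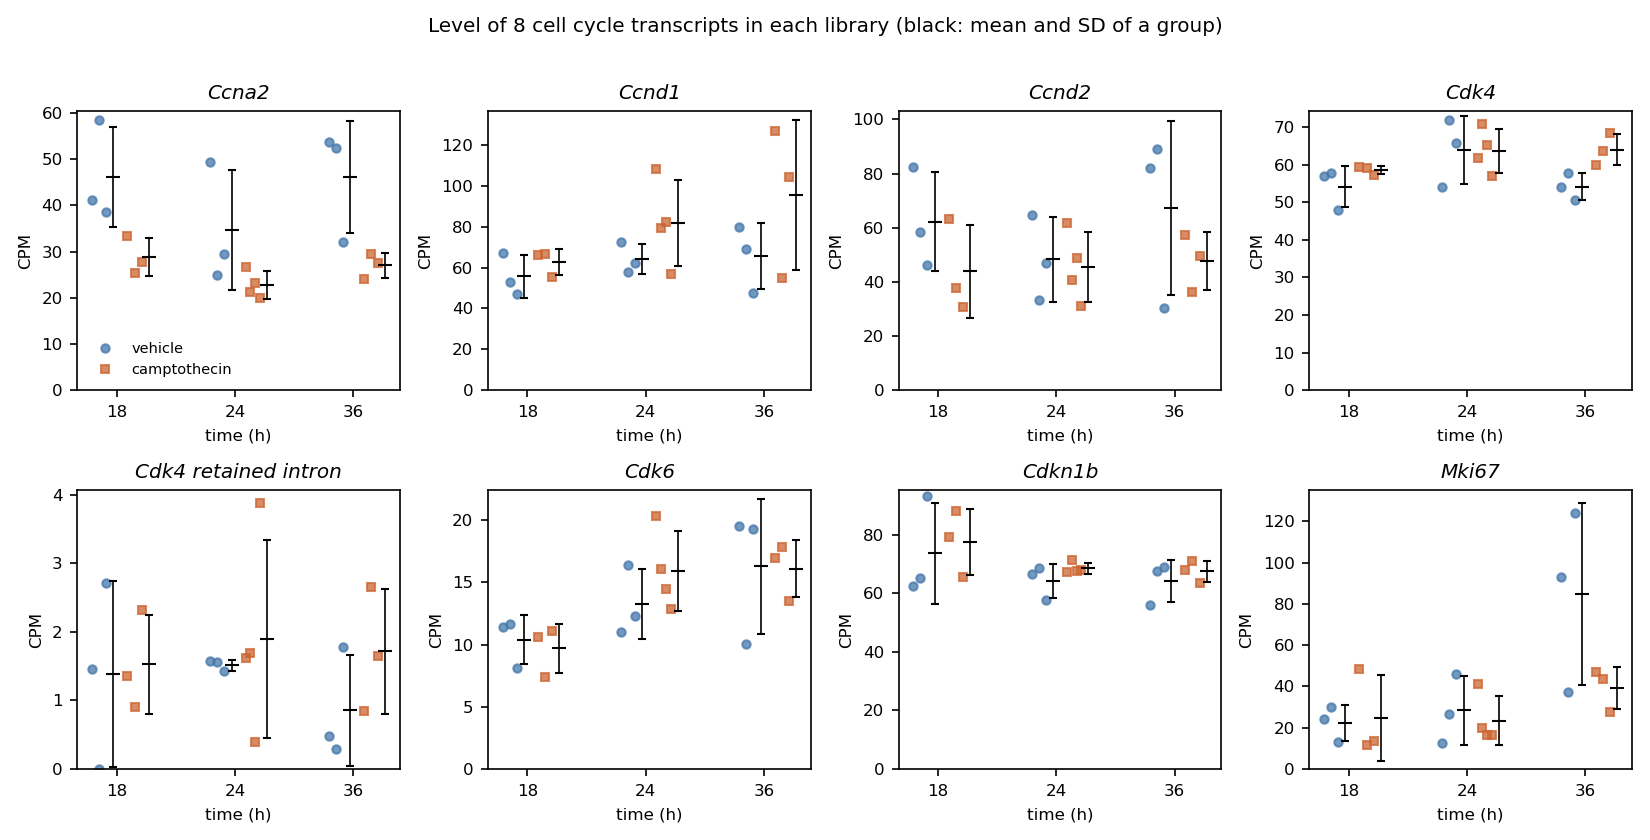
CPM of each member transcript (y axis, from 0) against time in h (x axis) in 9 vehicle and 10 camptothecin libraries, with the mean and SD of each group in black. Ccna2 lies lower in camptothecin at 18 and 36 h with no overlap, and the Mki67 vehicle libraries of 36 h spread from 37.1 to 124.1 CPM.

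Across the drug comparisons, 1 member transcript passed the test, edgeR's quasi-likelihood test with Benjamini-Hochberg adjustment over 18606 transcripts and a threshold of 0.05. At 18 h 0 of 8 members were called, against a background of 1.58% of all transcripts. At 24 h 0 of 8 were called against a background of 0%, and at 36 h 0 of 8 against 2.5%. Averaged over the 3 times, Ccna2 was called lower and no member higher, where 10.3% of all transcripts were called in either direction and 7.69% lower, so 1 of 8 is close to the background. The members' median log2 fold change was 0.08 at 18 h, 0.04 at 24 h, 0.02 at 36 h and 0.06 on average, beside -0.02, 0.01, -0.02 and 0.01 over all transcripts. At an unadjusted p under 0.05, 2772, 1485, 2911 and 4393 of all transcripts would have been counted in these 4 comparisons.

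Between times, none of the 8 members was called by the same edgeR test. The backgrounds were 0.231% for vehicle 24 h against 18 h, 1.44% for vehicle 36 h against 18 h, 0% for camptothecin 24 h against 18 h, 0.511% for camptothecin 36 h against 18 h and 0.0107% for the difference between the drug effects at 36 h and 18 h. The counts of all transcripts at an unadjusted p under 0.05 were 2285, 2192, 940, 2083 and 921. DESeq2 called Ccna2 lower with camptothecin at 36 h and Mki67 higher in vehicle at 36 h against 18 h, and no further member outside the averaged comparison, where it called 1.

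**Figure D2:**
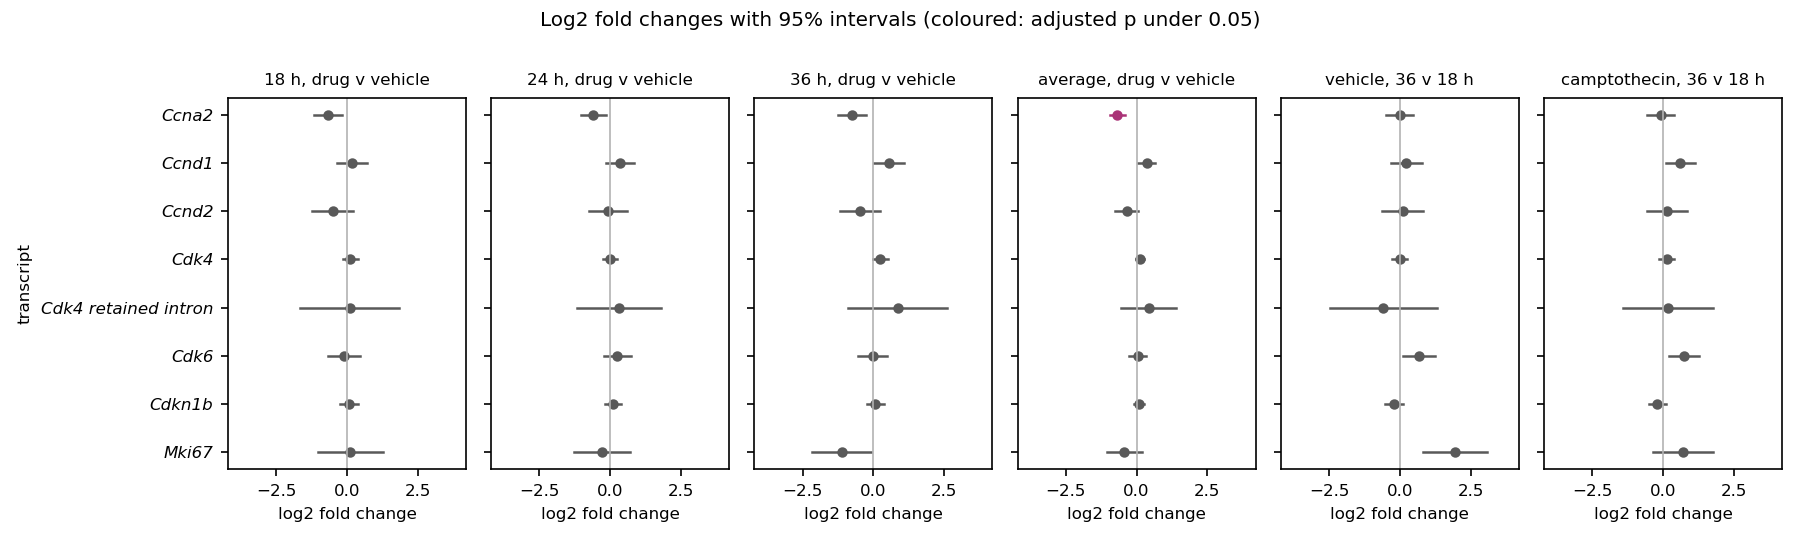
Log2 fold change (x axis) of each member transcript (y axis) in 4 comparisons of camptothecin with vehicle and in the 36 h against 18 h comparison of each arm, with 95% intervals. Ccna2 in the averaged comparison, at -0.68, is the only coloured point, and the widest intervals belong to the low retained-intron transcript of Cdk4 and to Mki67.

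Ccna2 (ENSMUST00000029270, chr3:36564865-36572150 on the minus strand of GRCm38, 8 exons, 2965 bases) was lower after camptothecin. In vehicle libraries it stood at 41.2, 58.5 and 38.7 CPM at 18 h, at 49.3, 24.9 and 29.6 at 24 h and at 53.7, 52.4 and 32.1 at 36 h. In camptothecin libraries it stood at 33.4, 25.3 and 27.7 CPM at 18 h, at 26.7, 21.3, 23.2 and 19.9 at 24 h and at 24.07, 29.6 and 27.5 at 36 h. Each camptothecin library of 18 and 36 h was therefore below each vehicle library of its time, while at 24 h vehicle replicate 2 fell within the camptothecin range. Of all transcripts, 11% had camptothecin libraries below vehicle without overlap at 18 h and 8.7% at 36 h. Averaged over the times, the log2 fold change was -0.68 ± 0.13 (SE), a level 0.625 times that of vehicle, with an adjusted p of 0.00154 by edgeR. The single times gave -0.68 ± 0.23, -0.60 ± 0.22 and -0.76 ± 0.23, with edgeR adjusted p-values of 0.147, 0.430 and 0.0907, and the 36 h value passed without vehicle 36 h replicate 4 (-0.97, edgeR adjusted p = 0.0119). With a correction for GC content the average was -0.62 ± 0.13 (edgeR adjusted p = 0.00895), and without the 4 libraries high in myeloid markers it was -0.76 ± 0.14 (edgeR adjusted p = 0.000784). The authors' deposited table, on their variance-stabilised log2 scale, gave Ccna2 fold changes of -0.46, -0.38 and -0.54 with adjusted p-values of 0.152, 0.609 and 0.1003.

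The exons of Ccna2 share 510 of their 2965 bases with Exosc9, a subunit of the RNA exosome encoded on the opposite strand. The kit named in the labels makes double-stranded cDNA by amplification, and whether reads were assigned by strand is not given in the sources used here, so reads in the shared bases cannot be assigned with certainty. The Exosc9 transcript ENSMUST00000029269, which shares 378 of those bases, stood at 13.4, 22.0 and 10.9 CPM in vehicle at 18 h, at 14.8, 5.50 and 9.65 at 24 h and at 21.0, 18.6 and 9.08 at 36 h. In camptothecin it stood at 7.71, 5.71 and 5.80 CPM at 18 h, at 5.19, 4.64, 4.04 and 3.97 at 24 h and at 5.90, 6.11 and 6.82 at 36 h. The libraries high and low in Exosc9 were those high and low in Ccna2: over 19 libraries the log2 levels had a Pearson r of 0.97, and of 0.93 after the group means were removed. Of 9186 transcripts of other genes with a mean of at least 5 CPM, Exosc9 was the most similar to Ccna2, an observation made after the overlap was seen. This Exosc9 transcript was itself lower with camptothecin by a log2 fold change of -1.26 ± 0.19 on average (edgeR adjusted p = 0.000173), and by -1.35 ± 0.34 at 36 h (edgeR adjusted p = 0.0340). A second Exosc9 transcript, ENSMUST00000131316, which shares 428 bases, had an r of 0.57 with Ccna2, at only 0.68 to 4.76 CPM. It averaged -0.51 ± 0.28 (edgeR adjusted p = 0.279). The Exosc9 transcripts ENSMUST00000149041 and ENSMUST00000133854 averaged -0.48 and -0.12 (edgeR adjusted p = 0.595 and 0.888). The part of shared reads in the Ccna2 result was not tested. With the group means removed, Ccna2 had an r of 0.62 with summed satellite glia markers, 0.67 with macrophage markers and -0.05 with red cell precursor markers. It was 0.65 with endothelial, 0.46 with sensory neuron and 0.44 with Schwann cell markers, so the macrophage list did not stand apart. With lymphocyte, fibroblast and myeloid markers it was 0.29, 0.08 and 0.02. The macrophage markers, with rows for 6 of 8 listed genes and none at 0, summed to between 18.09 and 26.6 CPM in vehicle and between 9.72 and 14.8 CPM in camptothecin at 18 h. They summed to between 11.1 and 19.2 against 9.78 to 16.7 CPM at 24 h, and to between 20.3 and 34.8 against 14.0 to 18.8 CPM at 36 h. The arms of this sum therefore did not overlap at 18 and 36 h, as for Ccna2. On average 2 of the 7 macrophage transcripts were called lower by edgeR, where 7.69% of all transcripts were. At 18, 24 and 36 h, 1, 4 and 3 of the 7 had a positive log2 fold change. Their mean levels were low, from 1.05 CPM for Cd68 to 5.23 CPM for Csf1r. The part of these cells in the Ccna2 result was not tested. With the group means kept, the r of Ccna2 with Mki67 was 0.23 over the 19 libraries.

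**Figure D3:**
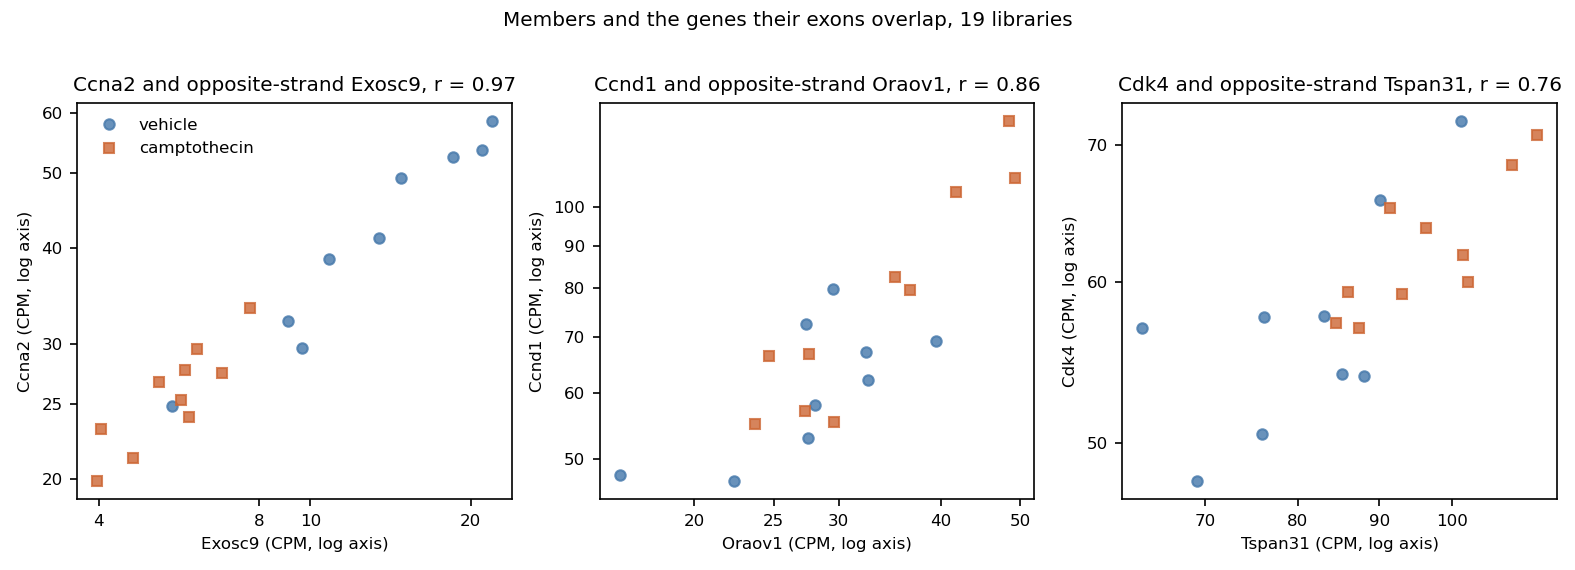
Level in CPM (log axes) of Ccna2, Ccnd1 and Cdk4 against the opposite-strand gene that overlaps each, 1 point a library, vehicle as circles and camptothecin as squares. The Ccna2 and Exosc9 points lie close to a line (r = 0.97), the other pairs are wider (0.86 and 0.76).

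Ccnd1 (ENSMUST00000093962, chr7:144929931-144939869, minus strand, 5 exons) stood at 67.1, 52.9 and 47.0 CPM in vehicle at 18 h, at 72.5, 58.0 and 62.2 at 24 h and at 79.8, 69.2 and 47.8 at 36 h. In camptothecin it stood at 66.4, 66.8 and 55.3 CPM at 18 h, at 108.5, 79.6, 82.5 and 57.0 at 24 h and at 126.9, 55.1 and 104.4 at 36 h. The highest 4 values were all from camptothecin libraries of 24 or 36 h, yet the arms overlapped at each time. The averaged log2 fold change was 0.36 ± 0.14 (edgeR adjusted p = 0.118), and the value at 36 h was 0.55 ± 0.25 (edgeR adjusted p = 0.287). Within the camptothecin arm, 36 h against 18 h gave 0.60 ± 0.25 (edgeR adjusted p = 0.343), and within vehicle 0.23 ± 0.26 (edgeR adjusted p = 0.823). The averaged call depended on single libraries: without camptothecin 24 h replicate 4 it was 0.43 (edgeR adjusted p = 0.0307), and without camptothecin 36 h replicate 2 it was 0.45 (edgeR adjusted p = 0.0195). The averaged value was also called with replicate number added to the fit. Its exons share 1100 of 3740 bases with the opposite-strand gene listed as Oraov1 in the table and as LTO1 in the annotation. The Oraov1 transcript ENSMUST00000128057, sharing 818 bases, had an r of 0.86 with Ccnd1 over 19 libraries and ranked 8 of 9186 in likeness. The 3 most similar transcripts belonged to Ehd2, a membrane-shaping ATPase (r = 0.89), Hsbp1, a binding partner of heat shock factor (r = 0.89), and 9430020K01Rik (r = 0.89).

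Ccnd2 (ENSMUST00000000188, chr6:127125162-127151060, minus strand, 5 exons), another D-type cyclin, stood at 82.3, 58.5 and 46.1 CPM in vehicle at 18 h, at 64.7, 33.2 and 47.0 at 24 h and at 82.2, 89.3 and 30.5 at 36 h. In camptothecin it stood at 63.4, 37.9 and 30.7 CPM at 18 h, at 61.7, 40.7, 48.8 and 31.0 at 24 h and at 57.2, 36.35 and 49.7 at 36 h. The arms overlapped at each time, with the widest spread in vehicle at 36 h. The averaged log2 fold change was -0.35 ± 0.19 (edgeR adjusted p = 0.282), opposite in sign to that of Ccnd1. At 36 h it was -0.48 ± 0.34 (edgeR adjusted p = 0.538), and Ccnd2 was called lower there with replicate number added to the fit. Without the 4 libraries high in myeloid markers the average was -0.67 ± 0.15 and passed (edgeR adjusted p = 0.00604), an alternative chosen after the data were seen. The counts of Ccnd1 over those of Ccnd2 in the same library, a ratio also chosen after the values were seen, had medians of 0.90, 1.32 and 0.97 in vehicle at 18, 24 and 36 h and of 1.76, 1.80 and 2.10 in camptothecin. The ratio ranged from 0.78 to 1.74 over the vehicle libraries and from 1.05 to 2.22 over the camptothecin libraries. Exons of Ccnd2 share 372 bases with the opposite-strand gene Gm43126.

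Both D-type cyclins were higher in the libraries of a group with more satellite glia marker RNA. Markers of satellite glia, the cells that wrap sensory neuron bodies (5 genes, all with rows and none at 0, of which Glul and Fabp7 were the highest), summed to between 1005 and 1301 CPM in vehicle at 18 h, between 1374 and 1526 at 24 h and between 1428 and 1917 at 36 h. The camptothecin ranges were 1171 to 1322, 1217 to 1707 and 1608 to 1860.3 CPM. The libraries of a group stood in the same order for Ccnd1 and for this sum in 5 of 6 groups, and likewise for Ccnd2 in 5 of 6. With the group means removed, the r with the satellite glia sum was 0.83 for Ccnd1 and 0.85 for Ccnd2 over 19 libraries. For Ccnd1 the r was also 0.72 with Schwann cell, 0.67 with macrophage, 0.67 with endothelial and 0.61 with fibroblast markers. For Ccnd2 it was 0.91 with endothelial, 0.81 with macrophage and 0.80 with Schwann cell markers, and 0.51 with sensory neuron markers. The libraries share their scaling, and the part of cell makeup in the Ccnd1 and Ccnd2 values was not tested.

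**Figure D4:**
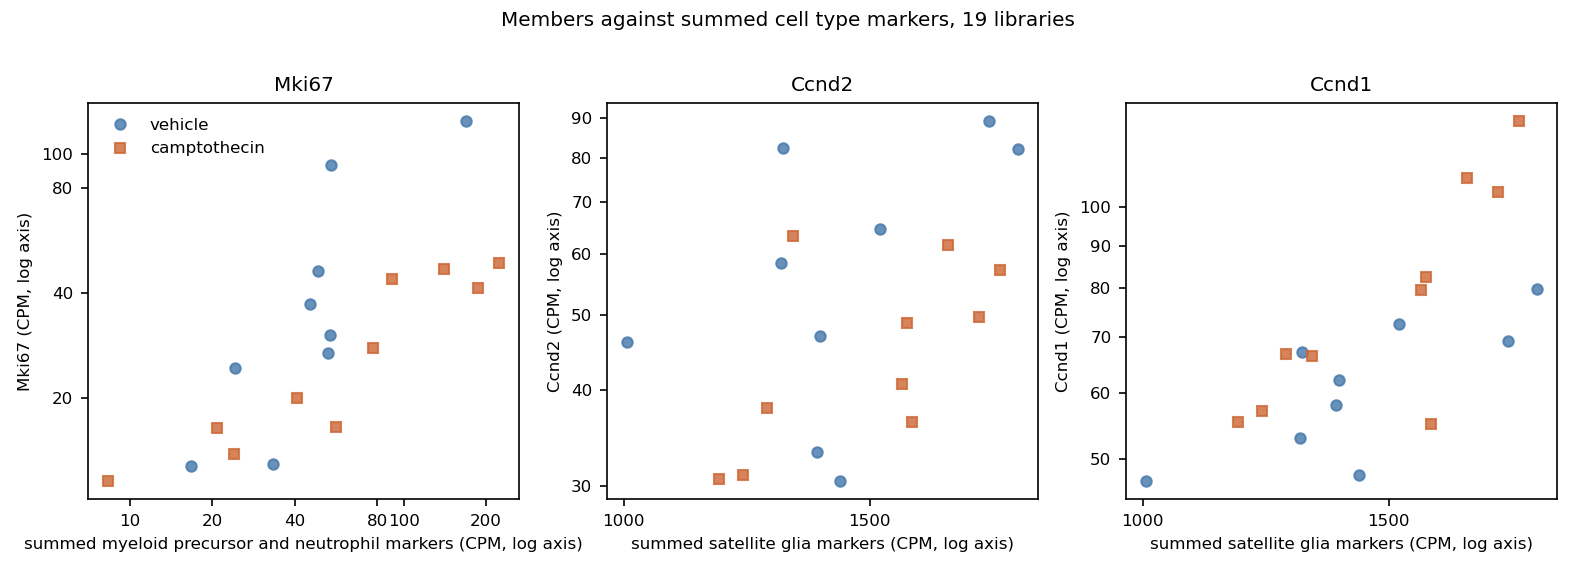
Level in CPM of Mki67 against the summed myeloid precursor and neutrophil markers, and of Ccnd2 and Ccnd1 against the summed satellite glia markers (log axes), 1 point a library, vehicle as circles and camptothecin as squares. With the group means removed the r is 0.82, 0.85 and 0.83.

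Cdk4 (ENSMUST00000006911, chr10:127063534-127067920, plus strand, 8 exons), the D-cyclin partner kinase, varied little. It stood at 56.9, 57.7 and 47.9 CPM in vehicle at 18 h, at 54.0, 71.9 and 65.8 at 24 h and at 53.9, 57.7 and 50.6 at 36 h. In camptothecin it stood at 59.3, 59.2 and 57.2 CPM at 18 h, at 61.8, 70.8, 65.2 and 56.9 at 24 h and at 59.9, 63.7 and 68.4 at 36 h. Only at 36 h was each camptothecin library above each vehicle library, as for 9.6% of all transcripts. The log2 fold change at 36 h was 0.25 ± 0.13 (edgeR adjusted p = 0.361) and the average 0.12 ± 0.07 (edgeR adjusted p = 0.339), with a 95% interval of -0.03 to 0.27. Its exons share 641 of 2053 bases with the opposite-strand tetraspanin gene Tspan31, whose level had an r of 0.76 with it over 19 libraries and which was called higher on average by 0.25 ± 0.07 (edgeR adjusted p = 0.0202). The RefSeq promoter window of Cdk4, 250 bases before to 50 after the start in GRCm38.p6, is shown for its 4 copies of CACGTG, the E-box letters read by MYC-family factors and in capitals below.
Cdk4, chr10:127063285-127063584, plus strand: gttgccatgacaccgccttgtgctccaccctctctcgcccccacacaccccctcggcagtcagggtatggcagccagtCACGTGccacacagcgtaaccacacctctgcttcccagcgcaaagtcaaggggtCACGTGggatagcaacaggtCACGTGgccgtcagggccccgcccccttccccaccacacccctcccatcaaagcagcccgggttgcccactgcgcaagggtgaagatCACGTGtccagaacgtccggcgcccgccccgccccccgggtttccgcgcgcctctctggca
CACGTG, searched on both strands, is its own reverse complement and was present in 7.15% of 32851 promoter windows of this length. Cdk6 had 1 copy, and Cdkn1b and Mki67 had 0.

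Cdk6 (ENSMUST00000165117, chr5:3343893-3531008, plus strand, 8 exons), the other D-cyclin kinase, was the lowest protein-coding member per length, and its values were higher at the later times in both arms without passing the test. It stood at 11.4, 11.6 and 8.14 CPM in vehicle at 18 h, at 10.98, 16.4 and 12.3 at 24 h and at 19.5, 10.0 and 19.3 at 36 h. In camptothecin it stood at 10.6, 7.41 and 11.1 CPM at 18 h, at 20.3, 16.1, 14.4 and 12.9 at 24 h and at 17.0, 17.8 and 13.5 at 36 h. Each camptothecin library of 24 and 36 h lay above each one of 18 h, whereas vehicle replicate 3 of 36 h fell within the 18 h range. Of all transcripts, 3.11% were higher without overlap in camptothecin at 24 h than at 18 h, and 9.62% at 36 h. The log2 fold changes for 36 h against 18 h were 0.67 ± 0.27 in vehicle (edgeR adjusted p = 0.307) and 0.74 ± 0.25 in camptothecin (edgeR adjusted p = 0.244), and the difference between them was 0.07 ± 0.37 (edgeR adjusted p = 0.999). The drug comparison averaged 0.04 ± 0.15, with a 95% interval of -0.26 to 0.35. Its exons share 110 of 11525 bases with the opposite-strand gene Gm17590.

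Cdkn1b (ENSMUST00000067327, chr6:134920401-134925513, plus strand, 2 exons) varied little between the arms. Its values ran from 56.1 to 93.4 CPM in vehicle and from 63.5 to 87.9 CPM in camptothecin, with the top of each arm at 18 h, and the arms overlapped at each time. The averaged drug difference was 0.08 ± 0.08 on the log2 scale, with a 95% interval of -0.09 to 0.25 (edgeR adjusted p = 0.614). Time comparisons gave -0.20 ± 0.15 for vehicle and -0.20 ± 0.14 for camptothecin at 36 h against 18 h (edgeR adjusted p = 0.683 and 0.656). Of the other kinase inhibitors, 3 of 6 listed genes had rows, with 4 transcripts. Cdkn1a, which encodes the p53-inducible inhibitor p21 and is known to respond to nerve injury, rose with time in vehicle mice. Its transcript ENSMUST00000023829 stood at 99.3, 71.4 and 40.2 CPM at 18 h, at 121, 104 and 88.1 at 24 h and at 149.8, 140.5 and 115 at 36 h. The 36 h against 18 h difference was 0.95 ± 0.20 on the log2 scale (edgeR adjusted p = 0.0162), and it was the 1 of 4 inhibitor transcripts called there, where 1.01% of all transcripts were called higher. That call did not pass in 4 of 16 alternatives. Among these were the fits without vehicle 18 h replicate 4 (0.66, edgeR adjusted p = 0.065), vehicle 36 h replicate 2 (0.86, edgeR adjusted p = 0.0872) or vehicle 36 h replicate 3 (0.92, edgeR adjusted p = 0.0532). In camptothecin Cdkn1a stood at 83.9, 86.3 and 72.8 CPM at 18 h and at 143, 130.5 and 140.2 at 36 h, so it was higher at the later time in this arm too. There 0 of the 4 inhibitor transcripts were called, beside 0.511% of all transcripts, and their median was 0.95, against 0.64 in vehicle. The averaged drug difference of this Cdkn1a transcript was 0.08 ± 0.11 (edgeR adjusted p = 0.707). A second Cdkn1a transcript, ENSMUST00000122348, was among the 4 tested. In the averaged comparison 0 of the 4 were called, where 10.3% of all transcripts were.

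Mki67 (ENSMUST00000033310, chr7:135689784-135716361, minus strand, 14 exons, 10061 bases) had the widest range of the protein-coding members. In vehicle it stood at 24.23, 30.2 and 12.9 CPM at 18 h, at 12.7, 26.9 and 46.0 at 24 h and at 93.0, 37.1 and 124.1 at 36 h. In camptothecin it stood at 48.5, 11.5 and 13.8 CPM at 18 h, at 41.2, 20.0, 16.5 and 16.4 at 24 h and at 46.8, 43.6 and 27.7 at 36 h. Each vehicle library of 36 h lay above each of 18 h, as for 7.86% of all transcripts, while the arms overlapped at each time. The vehicle difference of 36 h against 18 h was 1.94 ± 0.54 on the log2 scale, 3.84-fold, and did not pass (edgeR adjusted p = 0.0832). It passed without vehicle 36 h replicate 3 (2.28, edgeR adjusted p = 0.0388), and was 1.55 without vehicle 36 h replicate 4 (edgeR adjusted p = 0.240). The camptothecin arm gave 0.70 ± 0.51 for the same times (edgeR adjusted p = 0.666). At 36 h camptothecin against vehicle gave -1.12 ± 0.50 (edgeR adjusted p = 0.278), or -0.73 without vehicle 36 h replicate 4 (edgeR adjusted p = 0.595). The drug effect at 36 h minus that at 18 h was -1.24 ± 0.74, with a 95% interval of -2.77 to 0.29 (edgeR adjusted p = 0.987). In the authors' deposited table the 36 h value of Mki67 was -0.79 with an adjusted p of 0.305, and no member had an adjusted p under 0.05 at any time.

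Within groups, the library with the most Mki67 was mostly that with the most myeloid marker RNA. In each of the 4 libraries with over 100 CPM of myeloid precursor and neutrophil markers, Mki67 was the highest of its group, and in 5 of 6 groups the same library led in both. With the group means removed, the r of Mki67 with this sum was 0.82 over 19 libraries. It was 0.78 with red cell precursor markers and 0.75 with lymphocyte markers, which summed to only 0.30 to 14.4 CPM. With other lists it was 0.37 (Schwann cell), 0.34 (fibroblast), 0.14 (satellite glia), 0.11 (endothelium), -0.05 (macrophage) and -0.33 (sensory neuron). Vehicle 36 h replicate 2, at 93.0 CPM of Mki67, had a myeloid sum of 54.2 CPM and the highest red cell precursor sum of any library, 110.5 CPM. With the group means kept, the 3 transcripts most similar to Mki67 among 9186 were those of Cybb, a subunit of the phagocyte NADPH oxidase (r = 0.86), Gm11505 (r = 0.85) and Top2a, the topoisomerase II of dividing cells (r = 0.84). With the means removed their r was 0.86, 0.89 and 0.75. Without the 4 libraries the vehicle difference of 36 h against 18 h was 1.57 (edgeR adjusted p = 0.0957) and the drug difference at 36 h was -0.85 (edgeR adjusted p = 0.440). At 36 h the red cell precursor markers themselves summed to between 41.5 and 110.5 CPM in vehicle and between 4.73 and 14.5 CPM in camptothecin. By edgeR 4 of their 7 transcripts were called lower there, where 2.32% of all transcripts were. The myeloid sum at 36 h went the other way, with a median of 54.2 CPM in vehicle and 91.0 CPM in camptothecin. Its ranges overlapped, at 45.7 to 169 and 77.6 to 140 CPM. The lymphocyte medians at 36 h were 2.76 CPM in vehicle and 3.62 CPM in camptothecin, also with overlapping ranges. The part of these cells in the Mki67 values was not tested.

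Genes of G2 and mitosis often share promoter letters, the cell cycle homology region TTTGAA and CCAAT boxes read by NF-Y. The RefSeq windows of Mki67 and of Top2a and Kif11, a mitosis gene alike in level and a mitosis gene called over time, are shown with both motifs in capitals on either strand.
Mki67, chr7:135716330-135716629, minus strand: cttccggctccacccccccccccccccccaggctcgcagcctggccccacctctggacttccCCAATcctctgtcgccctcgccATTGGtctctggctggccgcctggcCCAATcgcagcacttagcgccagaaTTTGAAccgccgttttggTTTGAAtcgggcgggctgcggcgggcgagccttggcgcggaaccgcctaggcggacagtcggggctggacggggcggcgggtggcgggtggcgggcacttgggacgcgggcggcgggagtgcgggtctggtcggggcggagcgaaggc
Top2a, chr11:99024140-99024439, minus strand: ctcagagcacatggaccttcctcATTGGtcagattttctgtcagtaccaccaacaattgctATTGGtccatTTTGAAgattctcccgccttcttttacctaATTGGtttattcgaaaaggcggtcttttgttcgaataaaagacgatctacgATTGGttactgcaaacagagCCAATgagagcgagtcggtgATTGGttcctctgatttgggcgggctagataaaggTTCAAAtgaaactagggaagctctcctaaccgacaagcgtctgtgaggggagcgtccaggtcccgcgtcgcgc
Kif11, chr19:37376132-37376431, plus strand: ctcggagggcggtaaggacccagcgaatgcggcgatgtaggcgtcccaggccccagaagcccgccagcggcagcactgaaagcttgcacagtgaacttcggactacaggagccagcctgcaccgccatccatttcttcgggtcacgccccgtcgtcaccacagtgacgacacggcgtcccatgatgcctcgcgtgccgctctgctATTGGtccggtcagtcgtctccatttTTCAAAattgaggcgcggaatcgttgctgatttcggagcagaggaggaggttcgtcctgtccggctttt
Mki67 held 2 copies of TTTGAA and 3 of CCAAT. Of 16 windows matched to 15 of the 16 tested genes of the G2 and mitosis list, 13 held TTTGAA and 14 held CCAAT, where 17.9% and 37.4% of all 32851 windows did. None of the 16 held an E2F-type site (TTTGGCGC, TTTCGCGC, TTTCCCGC or TTTGCCGC), found in 2.26% of all windows. Such matches describe letters only.

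The other genes of G2 and mitosis resembled Mki67 at 36 h in direction more than in calls. The list had rows for 17 of 30 genes, and 17 transcripts of 16 genes were tested. In vehicle at 36 h against 18 h, 14 of 17 had a positive log2 fold change with a median of 0.69, beside -0.00 over all transcripts. Of the 17, 1 was called higher, where 1.01% of all transcripts were. This was Kif11, the spindle motor Eg5, which stood at 7.30, 8.996 and 8.82 CPM at 18 h, at 7.32, 7.77 and 8.54 at 24 h and at 21.2, 16.8 and 21.9 at 36 h in vehicle. Each 36 h library was above those of 18 h, as for 7.86% of all transcripts, and the difference was 1.25 ± 0.25 (edgeR adjusted p = 0.00871). This call did not pass without the replicate 4 libraries together (edgeR adjusted p = 0.107) or with the compared groups alone in the fit (edgeR adjusted p = 0.0592). Camptothecin at 36 h, compared with these same vehicle libraries, gave 4 of 17 positive values and a median of -0.68, and 1 was called. This was Hmmr, a spindle-associated hyaluronan receptor, at 6.83, 6.77 and 5.35 CPM in vehicle and 1.97, 1.38 and 0.72 CPM in camptothecin, with a log2 fold change of -2.19 ± 0.46 (edgeR adjusted p = 0.0128), where 2.32% of all transcripts were called lower. The Hmmr call at 36 h did not pass when vehicle replicate 2 or 3 or camptothecin replicate 1 or 3 was left out, at -1.90 to -2.56. Both medians turned on vehicle 36 h replicate 4, without which they were 0.39 and -0.30. Without vehicle 18 h replicate 3 or vehicle 36 h replicate 3 the first was 1.06 or 1.17, and without vehicle 36 h replicate 2 the second was -0.43. On average over the times, 2 of the 17 transcripts were called lower, where 7.69% of all transcripts were: Hmmr (-1.09 ± 0.26, edgeR adjusted p = 0.00856) and Ube2c, the conjugating enzyme of the anaphase-promoting complex (-2.44 ± 0.66, edgeR adjusted p = 0.0204). The averaged Hmmr call did not pass with the GC correction (-0.86, edgeR adjusted p = 0.0667), nor did that at 36 h (-1.91, edgeR adjusted p = 0.0658). Ube2c had 0, 1 and 4 counts in camptothecin at 18 h against 19, 7 and 42 in vehicle, and its call did not pass in 6 of 28 alternatives. Among these were the fits without vehicle 18 h replicate 4, vehicle 24 h replicate 1, camptothecin 18 h replicate 3 or the 4 libraries high in myeloid markers.

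**Figure D5:**
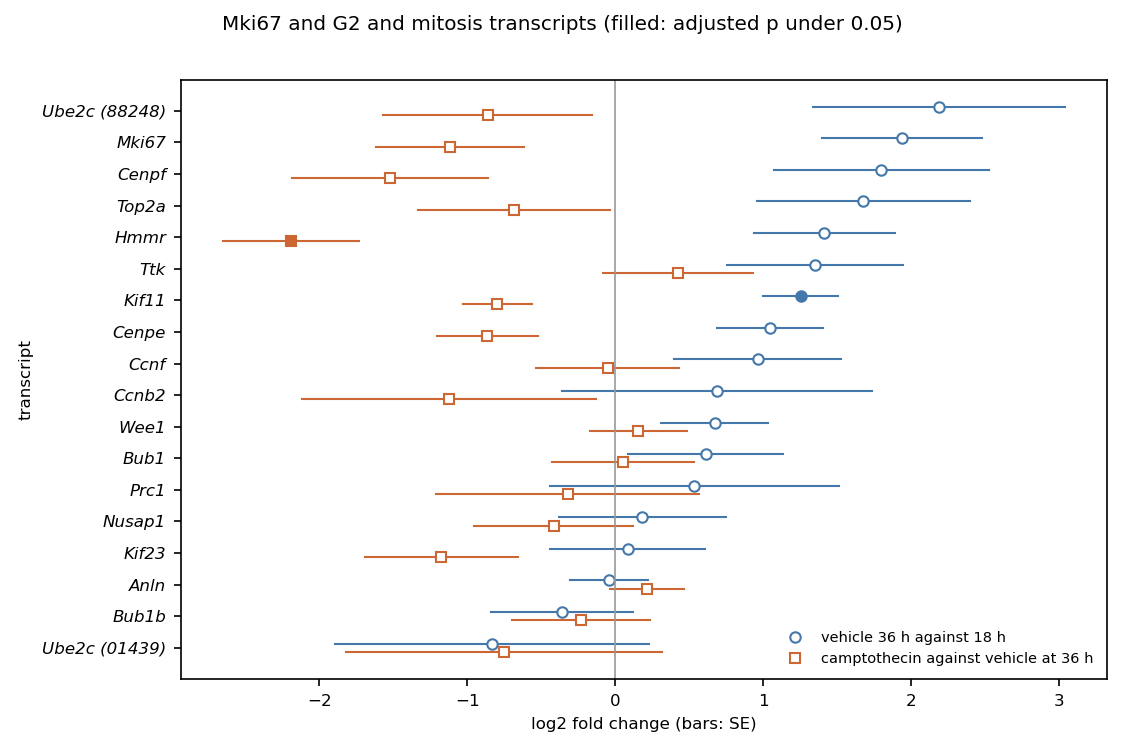
Log2 fold change with its SE (x axis) of Mki67 and 17 transcripts of the G2 and mitosis list (y axis), for vehicle 36 h against 18 h (circles) and camptothecin against vehicle at 36 h (squares), filled where the adjusted p was under 0.05. The vehicle comparison is positive for 14 of the 17 and the drug comparison negative for 13, both resting on the same 3 vehicle libraries of 36 h, and the filled points are Kif11 and Hmmr.

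Genes of the G1 to S transition, with 26 transcripts of 16 of the 23 listed genes tested, had 3 transcripts lower and 0 higher with camptothecin on average, where 7.69% of all transcripts were called lower and 2.59% higher, and a median of -0.06. Ccnh, the cyclin of the kinase that activates other cyclin-dependent kinases, fell by 0.94 ± 0.15 on the log2 scale (edgeR adjusted p = 0.000346). It stood at 16.3, 14.6 and 12.9 CPM in vehicle at 18 h against 7.26, 9.11 and 5.67 in camptothecin, and at 16.8, 12.96 and 8.91 against 5.06, 5.32 and 5.58 at 36 h. There it was the 1 transcript of the 26 called (-1.26 ± 0.27, edgeR adjusted p = 0.0154), where 2.32% of all transcripts were called lower. With the GC correction the average was -0.53 (edgeR adjusted p = 0.0676). The 36 h call did not pass in 8 of 16 alternatives, among them when vehicle replicate 2 or 3 or any camptothecin replicate was left out. The others were transcripts of Rb1, the retinoblastoma protein: ENSMUST00000163932 at -0.81 ± 0.24 (edgeR adjusted p = 0.0347) and ENSMUST00000170967 at -0.76 ± 0.23 (edgeR adjusted p = 0.0408). Neither Rb1 call passed under the GC correction, and the first turned to 0.08. Leaving out single libraries also ended them, for 12 and 13 of the 19 libraries.

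DNA replication genes, with 18 transcripts of 17 of the 25 listed genes, had 1 transcript higher with camptothecin on average and 0 lower, with a median of 0.06. This was Gins1, a subunit of the replicative helicase, at 0.86 ± 0.27 (edgeR adjusted p = 0.0461), where 2.59% of all transcripts were called higher. It stood at 0.88, 1.85 and 0.90 CPM in vehicle and 3.48, 1.40 and 2.84 CPM in camptothecin at 18 h. The call ended in 17 of 28 alternatives, among them when any of 11 of the 19 libraries was left out. The ribonucleotide reductase subunit Rrm2 had the smallest p of the list in vehicle at 36 h against 18 h, 2.20 ± 0.71, without passing (edgeR adjusted p = 0.149), followed by the helicase subunits Mcm5 at 1.36 ± 0.52 and Mcm6 at 0.68 ± 0.27 (edgeR adjusted p = 0.260 and 0.277). Of 25 transcripts of 16 cyclin and kinase genes that act outside the division cycle, 2 were lower with camptothecin on average and 0 higher, a share close to the 7.69% of all transcripts called lower. Cdk5r1, which encodes p35, the neuronal activator of Cdk5, stood at 39.7, 51.6 and 49.96 CPM in vehicle and 32.8, 30.8 and 33.4 CPM in camptothecin at 18 h, and at 60.8, 61.6 and 44.1 against 33.1, 36.5 and 45.4 at 36 h. Its averaged difference was -0.44 ± 0.10 (edgeR adjusted p = 0.00430). Cdk13, a kinase of transcript elongation, averaged -0.20 ± 0.06 (edgeR adjusted p = 0.0376) and did not pass when any of 12 libraries was left out, or without the 4 libraries high in myeloid markers.

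Among themselves the members did not vary as a set. Over 19 libraries the r of log2 levels was 0.67 between Ccna2 and Ccnd2, 0.65 between Cdk6 and Mki67, 0.43 between Ccnd1 and Ccnd2 and 0.10 between Ccnd1 and Mki67. It was -0.54 between Ccna2 and Cdk4 and -0.54 between Cdk6 and Cdkn1b. These values describe the libraries, which share scaling and depth.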

How the data were processed

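RNA from whole dorsal root ganglia was amplified to cDNA and sequenced in paired ends, per the labels' protocols. The authors deposited 1 table with whole-number read counts per Ensembl transcript, variance-stabilised log2 values, log2 fold changes, and p-values with adjusted p-values. CASAVA 1.8.2, limma and mm10 are named in the submitters' processing notes; for the aligner, counter, annotation and strand setting nothing is given in those notes or the header. The column letters for the arms were resolved by recomputing the deposited log2 fold changes, whose names give the arms, from the deposited log2 values. The labels do not say that same-numbered libraries share a mouse or that libraries came from separate mice, so the spread behind each p-value may be technical.

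Testing of the 19 count columns used R 4.3.3 and edgeR 4.0.16, with TMM scaling, filterByExpr (min.count 10, min.total.count 15, which removed 965 transcripts), 6 group means, the quasi-likelihood test and Benjamini-Hochberg adjustment over 18606 transcripts. CPM values use TMM-scaled totals. The method was tested on simulated data with the same spread for all transcripts. Those data held no GC trend and no deviation shared by replicate 4 libraries, so that test does not cover either. Counts without a gene symbol made up 0.501% to 0.568% of a library. Transcript positions are of GENCODE on GRCm38, and promoter windows are RefSeq's. Alternatives were RLE factors, no filter, DESeq2 1.42.0, limma-voom 3.58.1, a GC correction, a replicate block, fits of the compared groups alone and left-out libraries. The genes named are all members, up to 3 transcripts a list with the smallest p on average over the times or in vehicle at 36 h against 18 h (chiefly those called), and, for Ccnd1 and Mki67, the 3 transcripts of other genes with the highest r among those with a mean of at least 5 CPM. The overlapping genes, the Ccnd1 to Ccnd2 ratio and the promoters printed were chosen after values were seen. The members and lists were chosen with earlier results of these data known. A marker of the satellite glia list is not reported here and was left out of its sum.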

Additional observations from a re-analysis of the deposited data

Results flagged for a closer look

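Among the 4 camptothecin libraries of 24 h, replicate 1 stood apart in Mki67, at 41.2 CPM against 20.0, 16.5 and 16.4 CPM in the others. The gap to the nearest library was 0.854 of the group's range, above Dixon's 95% critical value. This library also had the highest myeloid precursor and neutrophil marker sum of its group, 187 CPM against 20.8 to 56.8 CPM, whose part in the value was not tested. Chance alone marks about 1 in 20 such groups in a single check. All 8 member transcripts were checked in this group and only Mki67 passed the critical value, so a mark by chance among them is more likely than that.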

How the results depend on the processing

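Ccna2 averaged over the times passed under each of 29 alternatives, at -0.76 to -0.56 with adjusted p-values from 2.15e-05 to 0.00895. No value of a called member reversed or lost its call. With DESeq2 the count of members called was 1 at 36 h (Ccna2) and 1 in vehicle 36 h against 18 h (Mki67). All 6 pairs of replicate 4 libraries, from both arms, deviated together (correlations 0.226 to 0.455). For numbers 1, 2 and 3, 1 of 6, 2 of 10 and 2 of 15 pairs had a correlation over 0.1. The main fit took no pairing from the numbers, so the deviation shared by replicate 4 libraries was left in it. With the replicate block 2 members were called at 36 h (Ccna2 and Ccnd2) and 2 on average (Ccna2 and Ccnd1), and with the replicate block and the GC correction 2 at 36 h and 1 in vehicle 36 h against 18 h (Mki67). Leaving out 1 library at a time gave 0 to 1 at 36 h, 0 to 1 in vehicle 36 h against 18 h and 1 to 2 on average. Without the 4 libraries high in myeloid markers, chosen after the data were seen, 2 were called on average (Ccna2 and Ccnd2, both lower). The Rb1 transcript ENSMUST00000163932 turned from -0.81 to 0.084 under the GC correction and to 0.10 with the replicate block added, and the cause was not tested. Over all transcripts, leaving out 1 library moved the calls from 294 to between 1 and 484 at 18 h and from 466 to between 1 and 1080 at 36 h. Fits of the compared groups alone were not run for the average. The depth differed between arms and 3 or 4 libraries a group limit what could be called.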
